A study of Mus musculus with 4 samples.

Results

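The mouse genes named *Zfp600* to *Zfp999* are the numbered zinc finger genes of the upper symbol range, and they were taken by their symbol alone, as every row whose name is Zfp followed by 3 digits, the first of them 6 to 9, and at most 1 small letter. There were 146 such genes among the 23420 symbols of the count files. Of these, 138 had at least 10 counts in at least 2 libraries and were tested, 3 (*Zfp616*, *Zfp648* and *Zfp735*) had 0 counts in every library, and 5 (*Zfp600*, *Zfp804b*, *Zfp831*, *Zfp872* and *Zfp957*) had too few. A count of 0 still allows an expected count of up to 3 in that library, a limit that covers counting error only, as PCR copies were not told apart from separate molecules.

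RNA was measured by stranded, ribosomal RNA depleted RNA-seq in cervical motor neurons (MNs) made in culture from E14 mouse embryonic stem cells (mESCs), the male-derived line E14TG2a, by way of embryoid bodies treated with all-trans-retinoic acid and a smoothened agonist. Each of the 2 groups compared has 2 libraries. The first is wild type (WT), and the second carries the genotype *Patz1* -/- (*Patz1* KO), which was made with CRISPR in the mESCs, so that the gene was already edited before differentiation began. *Patz1* encodes a BTB domain zinc finger protein that binds G-rich DNA. The study describes its replicates as separate biological samples, and more than 1 KO clone was made, but the labels do not say which clone gave which library, so clone and genotype cannot be told apart here. The sample names contain ESC while the source and cell type fields give MNs. The MN genes *Mnx1*, *Isl1*, *Lhx3* and *Chat* were well covered in all 4 libraries, and *Pou5f1*, the defining gene of pluripotent cells, had at most 7 counts. Other pluripotency markers were counted in every library, *Nanog* with 46 to 75, *Klf4* with 15 to 61 and *Zfp42* with 18 to 57 counts. *Esrrb* and *Dppa5a* had at most 17 and 18, *Tdgf1* and *Dppa3* at most 4 and 1.

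Most of these genes encode proteins with tandem C2H2 zinc fingers, each of which contacts a few bases of DNA. Many also carry a KRAB box at the N terminus, which binds TRIM28 (KAP1) and through it the H3K9 methyltransferase SETDB1 and the HP1 proteins, so that the sequence bound, often a retroelement, is packed as H3K9me3 chromatin. Such KRAB zinc finger genes lie in tandem runs that arose by duplication, and they differ between strains and species. A search of the translated reading frames found a KRAB box in 90 of the 146 genes and none in 56, and the genes held a median of 10 fingers (0 to 33), 12 with a KRAB box and 7 without. A box too far from the search pattern would be counted as absent. Only protein-coding transcripts were translated, so the 3 genes annotated as pseudogenes (*Zfp783*, *Zfp862* and *Zfp939*) were counted without a box and with 0 fingers.

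The total counts were 14769104 and 15728158 for the WT libraries, 23881522 and 17402342 for those of *Patz1* KO. *Patz1* itself had 1363 and 1499 counts in the WT libraries against 1154 and 714 in those of *Patz1* KO, with a log2 fold change (log2FC, *Patz1* KO over WT) of -1.04 (SE 0.0952, adjusted p = 9.93e-08), so that its RNA was lower but still counted. Each adjusted p here comes from the quasi-likelihood F-test of edgeR, corrected by the Benjamini-Hochberg method over all 14394 genes tested. Marker lists moved between the groups. Of 12 MN markers 10 were higher in *Patz1* KO and 0 lower, of 10 primitive endoderm markers 0 and 8, of 7 mesenchyme and neural crest markers 1 and 5, of 6 markers of dividing cells 0 and 6, and of 8 pluripotency markers, 5 of them tested, 0 and 2. The summed level of the dividing cell markers was 1753 and 1860 CPM (counts scaled to 1000000 per library) in WT against 951 and 956 in *Patz1* KO, and that of the primitive endoderm markers 826 and 922 against 226 and 202. Fewer cells of a type and less RNA per cell cannot be told apart in these bulk samples, and the part of the cell mixture in the values below was not tested.

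To ask whether the zinc finger genes moved with the loss of *Patz1*, WT and *Patz1* KO MNs were compared. Of the 138 genes tested, 33 were higher and 20 lower in *Patz1* KO, together 38.4%, while among all genes tested 47.4% were called, 24.0% higher and 23.4% lower. The median log2 fold change was 0.041, with quartiles of -0.14 and 0.34, beside a median of -0.0014 over all genes tested. Large changes were few, since 3 genes (*Zfp786*, *Zfp940* and *Zfp775*) rose and 7 (*Zfp629*, *Zfp750*, *Zfp936*, *Zfp951*, *Zfp934*, *Zfp819* and *Zfp820*) fell by more than 1 on the log2 scale, 7.25% of those tested against 13.7% of all genes. Values did not overlap between the 2 groups for 92 genes (66.7%), against 73.9% of all genes tested. The groups overlapped in the summed level of the zinc finger genes, at 4192 and 4303 CPM in WT and 4304 and 4293 CPM in *Patz1* KO. DESeq2's Wald test made 36 of the 53 calls, and those it did not make were *Zfp607*, *Zfp609*, *Zfp622*, *Zfp639*, *Zfp646*, *Zfp667*, *Zfp692*, *Zfp770*, *Zfp780b*, *Zfp783*, *Zfp809*, *Zfp819*, *Zfp825*, *Zfp868*, *Zfp941*, *Zfp952* and *Zfp958*. Leaving out WT replicate 1 took the number called from 53 to 30, and leaving out WT replicate 2 took the number lower from 20 to 12.

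Genes in which the search found a KRAB box and genes in which it found none were called in both directions. With a box, 19 rose, 13 fell and 54 of 86 were not called, with a median log2 fold change of 0.022. Without one, 14 rose, 7 fell and 31 of 52 were not called, with a median of 0.069. In most of the genes on chromosome 6, which was shifted as a whole (below), the search found no box. Among these, *Zfp783* and *Zfp862* are annotated as pseudogenes and were not translated, and a box far from the pattern would be missed in the others. Off that chromosome, 17 rose and 13 fell of 84 with a box (35.7%, median -0.0024). Without a box, 8 rose and 7 fell of 45 there (33.3%, median 0.033), beside 46.2% called among all genes off that chromosome. The difference between the sets was not tested, since genes are not replicates. In the other numbered Zfp genes, those below *Zfp600*, 41 rose and 25 fell of 200 tested (33%, median 0.041), and in the other genes with a KRAB box and at least 3 fingers, some of which are among them, 24 rose and 20 fell of 140 (31.4%, median 0.021).

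**Figure D1:**
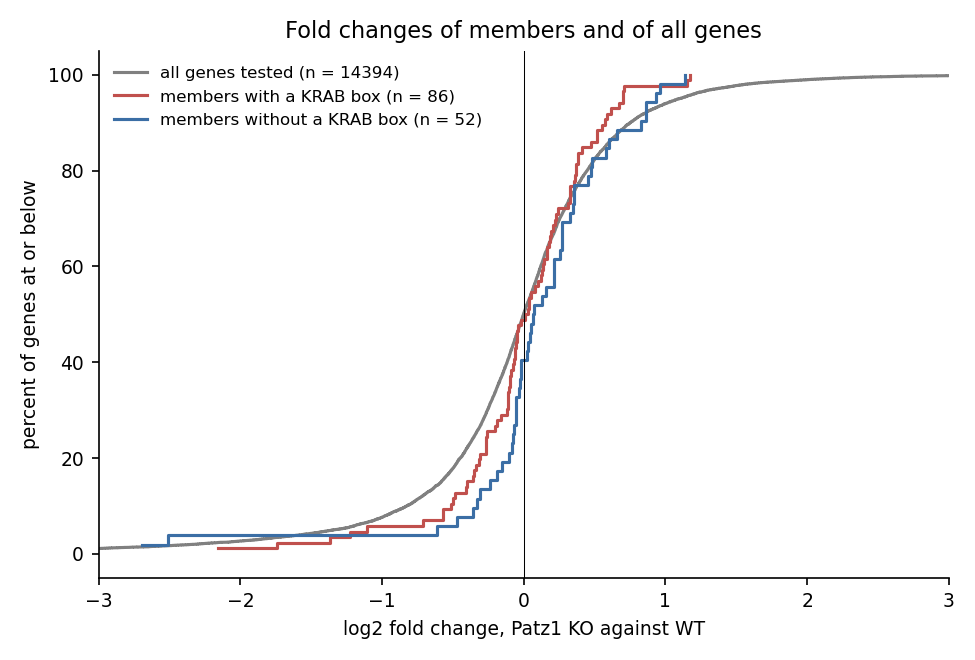
Cumulative share of genes (percent, vertical axis) at or below each log2 fold change of Patz1 KO against WT (horizontal axis, shown from -3 to 3) for all genes tested and for Zfp600 to Zfp999 genes with and without a KRAB box. The zinc finger curves are steeper than that of all genes, with a median absolute log2 fold change of 0.27 against 0.34.

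The largest fall was that of *Zfp629* (chr7:127607031-127615797, GRCm38, minus strand), a gene with 19 fingers and no KRAB box. Its reads came to 1520 and 1550 counts in the WT libraries against 417 and 225 in those of *Patz1* KO, and its level went from 99.8 ± 3.23 CPM in WT to 15.3 ± 2.68 CPM in *Patz1* KO (SD, n = 2), with a log2FC of -2.69 (SE 0.116, adjusted p = 8.54e-12). Both WT libraries lay far above both *Patz1* KO libraries, and no single library decided the call. It also passed a test against a minimum change of 1 on the log2 scale (adjusted p = 1.12e-09), as did *Zfp951* and *Zfp750*.

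*Zfp951*, a KRAB zinc finger gene on chromosome 5, had 179 and 229 counts in the WT libraries against 97 and 65 in those of *Patz1* KO and went from 13.2 ± 1.69 CPM in WT to 3.94 ± 0.0907 CPM in *Patz1* KO (SD, n = 2), with a log2FC of -1.74 (SE 0.184, adjusted p = 5.26e-07). *Zfp750* encodes a factor of epidermal differentiation that acts with KLF4. There were 32 and 20 counts in the WT libraries against 8 and 4 in those of *Patz1* KO, with a log2FC of -2.51 (SE 0.494, adjusted p = 0.000422). *Zfp936* had 29 and 15 counts in the WT libraries against 8 and 5 in those of *Patz1* KO, with a log2FC of -2.16 (SE 0.517, adjusted p = 0.00221), and without WT replicate 1 it was -1.56 (adjusted p = 0.091). *Zfp750* and *Zfp936* reached the minimum of 10 counts only in WT, so that a difference was built into their being tested, also in the test against a minimum change that *Zfp750* passed.

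Among the KRAB zinc finger genes with more reads, *Zfp934* had 92 and 114 counts in the WT libraries against 49 and 55 in those of *Patz1* KO and a log2FC of -1.37 (SE 0.251, adjusted p = 0.00022). It shares 29.5% of its 50-base words (stretches of transcript) and some exon sequence with other genes, so its counts are uncertain. *Zfp820* had 113 and 119 counts in the WT libraries against 74 and 68 in those of *Patz1* KO, with a log2FC of -1.10 (SE 0.216, adjusted p = 0.000399), and *Zfp937* went from 47.8 ± 0.142 CPM in WT to 29.2 ± 0.421 CPM in *Patz1* KO (SD, n = 2), with a log2FC of -0.71 (SE 0.0983, adjusted p = 1.17e-05). In each of these genes both WT values in CPM were above both *Patz1* KO values. *Zfp871*, the most highly counted of the falling KRAB genes, went from 152 ± 11.4 CPM in WT to 107 ± 1.83 CPM in *Patz1* KO (SD, n = 2), with a log2FC of -0.51 (SE 0.0885, adjusted p = 0.000124).

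*Zfp809* binds the primer binding site of murine leukaemia viruses and recruits TRIM28 to silence them in embryonic cells. Its reads came to 172 and 190 counts in the WT libraries against 214 and 130 in those of *Patz1* KO, and relative to depth its level fell from 11.8 ± 0.284 CPM in WT to 8.29 ± 0.765 CPM in *Patz1* KO (SD, n = 2), with a log2FC of -0.50 (SE 0.16, adjusted p = 0.0164). Its groups did not overlap, but the call was lost without WT replicate 1, at -0.52 (adjusted p = 0.0773), and without WT replicate 2, at -0.47 (adjusted p = 0.13). *Zfp819*, a KRAB protein of mESCs that binds TRIM28, had 18 and 17 counts in the WT libraries against 15 and 5 in those of *Patz1* KO, with a log2FC of -1.23 (SE 0.477, adjusted p = 0.0421). With so few reads the call of *Zfp819* was lost without WT replicate 1, WT replicate 2 or *Patz1* KO replicate 2, with log2 fold changes from -1.31 to -0.87 in those fits.

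The 12 largest falls among genes with a mean of at least 50 counts also include 3 more KRAB genes, *Zfp607*, *Zfp808* and *Zfp825*. *Zfp607* had 108 and 116 counts in the WT libraries against 115 and 85 in those of *Patz1* KO and a log2FC of -0.57 (SE 0.196, adjusted p = 0.0224), which was -0.58 (adjusted p = 0.119) without WT replicate 1 and -0.56 (adjusted p = 0.14) without WT replicate 2. *Zfp808* had 216 and 279 counts in the WT libraries against 274 and 172 in those of *Patz1* KO and a log2FC of -0.57 (SE 0.148, adjusted p = 0.00412), which was -0.42 (adjusted p = 0.135) without WT replicate 2. *Zfp825* had a log2FC of -0.36 (SE 0.117, adjusted p = 0.0174), and -0.42 (adjusted p = 0.0546) and -0.29 (adjusted p = 0.228) without WT replicates 1 and 2. *Zfp808* and *Zfp825* share 28.2% and 29.5% of their words with other genes.

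Of the genes without a KRAB box, a pair of paralogues with 1 finger each fell. *Zfp608* and its paralogue *Zfp609*, whose product works with the cohesin loader NIPBL and Integrator in neural progenitors, form this pair. *Zfp608* went from 78 ± 2.51 CPM in WT to 56.3 ± 1.4 CPM in *Patz1* KO (SD, n = 2), with a log2FC of -0.47 (SE 0.0916, adjusted p = 0.000369), and *Zfp609* from 47.9 ± 0.0973 CPM in WT to 38.7 ± 0.341 CPM in *Patz1* KO (SD, n = 2), with a log2FC of -0.31 (SE 0.0956, adjusted p = 0.0136). The call of *Zfp608* held in every fit that left out a library, while that of *Zfp609* was lost without WT replicate 1, at -0.30 (adjusted p = 0.112), and without WT replicate 2, at -0.30 (adjusted p = 0.123). *Zfp704* had 1486 and 1726 counts in the WT libraries against 1685 and 1122 in those of *Patz1* KO, with a log2FC of -0.61 (SE 0.0906, adjusted p = 2.55e-05), and its exons overlap an antisense transcript.

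**Figure D2:**
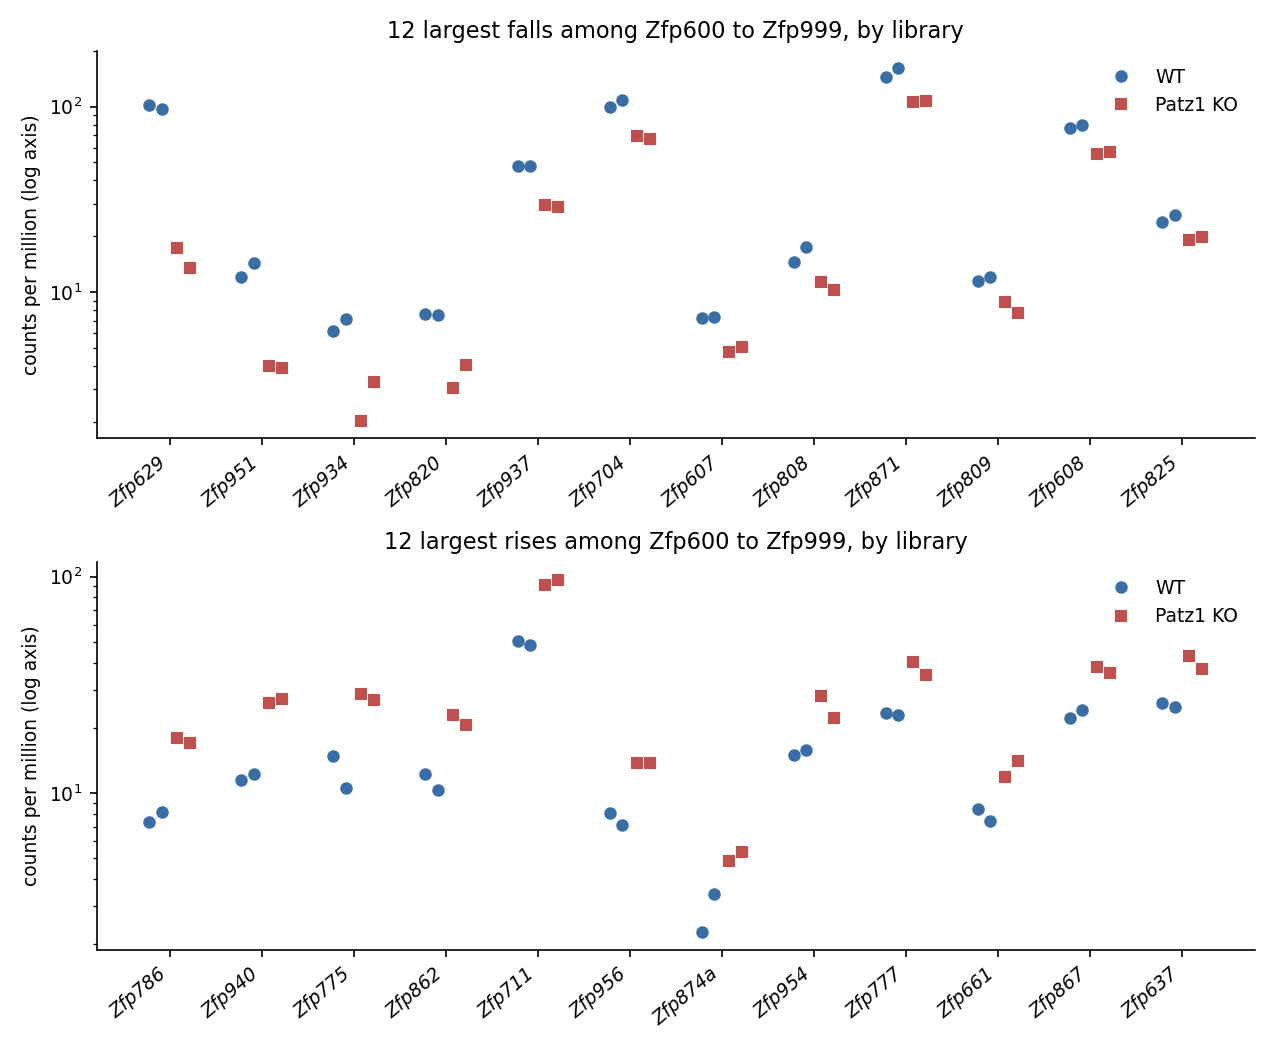
Level in CPM (log axis) of the 12 zinc finger genes with the largest fall (top) and the 12 with the largest rise (bottom) among those called with a mean of at least 50 counts, in each library, with WT as circles and Patz1 KO as squares, 2 libraries a group. The groups do not overlap for any gene plotted, which the choice of the genes required, and Zfp629 shows the widest gap, from 99.8 to 15.3 CPM on average.

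The rises were led by genes of chromosome 6. Of the 9 zinc finger genes there, 8 were higher and 0 lower, with a median log2 fold change of 0.86, and 7 of the 8 lie within 804 kb (chr6:47819266-48623227). *Zfp786* had 109 and 130 counts in the WT libraries against 435 and 286 in those of *Patz1* KO, with a log2FC of 1.17 (SE 0.149, adjusted p = 4.26e-06). *Zfp775* had 220 and 168 counts in the WT libraries against 697 and 450 in those of *Patz1* KO, with a log2FC of 1.14 (SE 0.144, adjusted p = 4.16e-06). *Zfp862*, annotated as a transcribed pseudogene, had 182 and 163 counts in the WT libraries against 556 and 347 in those of *Patz1* KO, with a log2FC of 0.96 (SE 0.138, adjusted p = 1.84e-05). All *Patz1* KO values of these genes were above all WT values, in CPM as in counts.

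The other genes of the run moved the same way. *Zfp956* went from 7.58 ± 0.672 CPM in WT to 13.8 ± 0.0325 CPM in *Patz1* KO (SD, n = 2), with a log2FC of 0.86 (SE 0.157, adjusted p = 0.000201), and *Zfp777*, a KRAB gene, from 23.2 ± 0.291 CPM in WT to 37.7 ± 3.68 CPM in *Patz1* KO (SD, n = 2), with a log2FC of 0.70 (SE 0.111, adjusted p = 4.91e-05). *Zfp746*, which encodes PARIS, a repressor of PGC-1alpha that Parkin degrades, went from 38.7 ± 0.502 CPM in WT to 57.8 ± 2.34 CPM in *Patz1* KO (SD, n = 2), with a log2FC of 0.58 (SE 0.0961, adjusted p = 8.16e-05). *Zfp783*, an annotated pseudogene whose exons overlap those of *Zfp956*, had 21 and 27 counts in the WT libraries against 67 and 49 in those of *Patz1* KO, with a log2FC of 0.86 (SE 0.303, adjusted p = 0.0259), and its call was lost without WT replicate 1, at 0.74 (adjusted p = 0.195), and without WT replicate 2, at 1.01 (adjusted p = 0.089). *Zfp637*, elsewhere on the chromosome, had a log2FC of 0.66 (SE 0.109, adjusted p = 8.18e-05), and *Zfp800* one of 0.21 (SE 0.106, adjusted p = 0.107), which did not pass the test.

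The shift was not limited to the *Zfp600* to *Zfp999* genes. Of 8 other genes tested inside the run, 7 were higher and 0 lower, with a median log2 fold change of 0.73. Zinc finger genes numbered below *Zfp600* were among the higher ones, namely *Zfp212* (0.70), *Zfp282* (0.83) and *Zfp398* (0.74). The others were *Atp6v0e2* (0.84), *Krba1* (0.80), *Repin1* (0.73) and *Lrrc61* (0.65). *Zfp467*, also numbered below *Zfp600*, had -0.29 (adjusted p = 0.241). Over the whole of chromosome 6, 457 of 707 genes tested were higher and 47 lower, and their median log2 fold change was 0.56, a 1.48-fold level. The other autosomes had medians from -0.13 to 0.15. The shift was alike in both *Patz1* KO libraries, with medians of 0.51 and 0.54 against the WT mean, and the share of all reads counted that fell on chromosome 6 was 3.91% in each WT library, 5.52% in *Patz1* KO replicate 1 and 5.41% in *Patz1* KO replicate 2.

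Because the run moved with its chromosome, each gene was also taken relative to the median of all genes tested on its chromosome, an alternative chosen after the data were seen. Of the 8 zinc finger genes called higher on chromosome 6, 3 were then still higher, *Zfp786* at 0.61 (adjusted p = 0.00266), *Zfp775* at 0.58 (adjusted p = 0.00321) and *Zfp862* at 0.40 (adjusted p = 0.025). *Zfp746*, *Zfp777*, *Zfp956*, *Zfp783* and *Zfp637* were no longer called, at 0.017, 0.14, 0.30, 0.30 and 0.095. Copy number was not measured, and a change of these genes with *Patz1* and a change of the whole chromosome in the *Patz1* KO line cannot be told apart. Over all chromosomes 27 zinc finger genes were higher and 20 lower by this measure. In the original fit, off chromosome 6, 25 zinc finger genes were higher and 20 lower of 129 (34.9%), with a median of 0.021, beside 46.2% called among all genes off that chromosome.

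**Figure D3:**
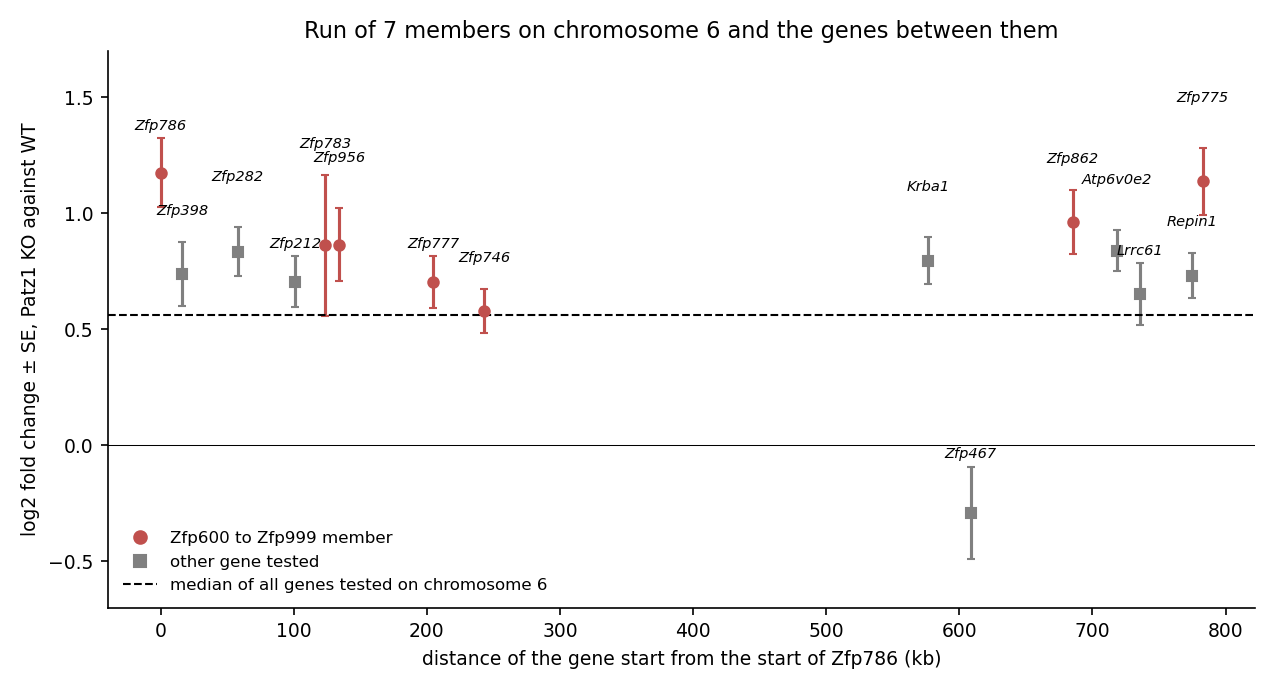
Log2 fold change of Patz1 KO against WT (vertical axis, with SE bars) of the 7 zinc finger genes in the run on chromosome 6 (circles) and of the 8 other genes tested there (squares), by the distance of the gene's start from that of Zfp786 in kb (horizontal axis). The dashed line is the median of all genes tested on the chromosome, 0.56, and every gene but Zfp467 lies above it.

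Off chromosome 6, the largest rises were those of *Zfp940* and *Zfp711*. *Zfp940*, a KRAB gene on chromosome 7, had 171 and 196 counts in the WT libraries against 629 and 455 in those of *Patz1* KO and went from 11.9 ± 0.599 CPM in WT to 26.5 ± 0.824 CPM in *Patz1* KO (SD, n = 2), with a log2FC of 1.15 (SE 0.126, adjusted p = 7.59e-07). The median of all genes tested on chromosome 7 was 0.042. *Zfp711* (chrX:112600526-112635070), the only one of the zinc finger genes on the X chromosome, encodes a ZFX family activator that recruits the demethylase PHF8 and is mutated in X-linked intellectual disability. It was covered by 750 and 771 counts in the WT libraries against 2223 and 1624 in those of *Patz1* KO, with a log2FC of 0.93 (SE 0.0923, adjusted p = 2.49e-07). This is a 1.91-fold level, and both *Patz1* KO values were above both WT values. Its part of the X chromosome was also higher, with a median of 0.69 over 244 genes tested from 100 Mb onwards (163 higher, 21 lower) and of -0.064 over 287 genes before it (71 higher, 87 lower), so that for *Zfp711* too the gene and its chromosome segment cannot be told apart.

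The rest of the 12 largest rises lie on other autosomes. *Zfp954* on chromosome 7 went from 15.4 ± 0.529 CPM in WT to 25.1 ± 4.23 CPM in *Patz1* KO (SD, n = 2), with a log2FC of 0.71 (SE 0.135, adjusted p = 0.000299). *Zfp661* on chromosome 2 had 126 and 118 counts in the WT libraries against 287 and 236 in those of *Patz1* KO, with a log2FC of 0.70 (SE 0.165, adjusted p = 0.00194), and *Zfp867* on chromosome 11 went from 23.1 ± 1.46 CPM in WT to 36.9 ± 1.54 CPM in *Patz1* KO (SD, n = 2), with a log2FC of 0.68 (SE 0.109, adjusted p = 5.91e-05). All of these carry a KRAB box, and their groups did not overlap. *Zfp874a* on chromosome 13 had 34 and 54 counts in the WT libraries against 117 and 90 in those of *Patz1* KO, with a log2FC of 0.83 (SE 0.251, adjusted p = 0.0112), and 0.58 (adjusted p = 0.183) without WT replicate 1. *Zfp639*, which encodes the zinc finger protein ZASC1, had the smallest rise of the genes called higher, from 37.5 ± 5.11 CPM in WT to 45.2 ± 0.01 CPM in *Patz1* KO (SD, n = 2), with a log2FC of 0.27 (SE 0.106, adjusted p = 0.0462), and 0.14 (adjusted p = 0.527) without WT replicate 1.

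**Figure D4:**
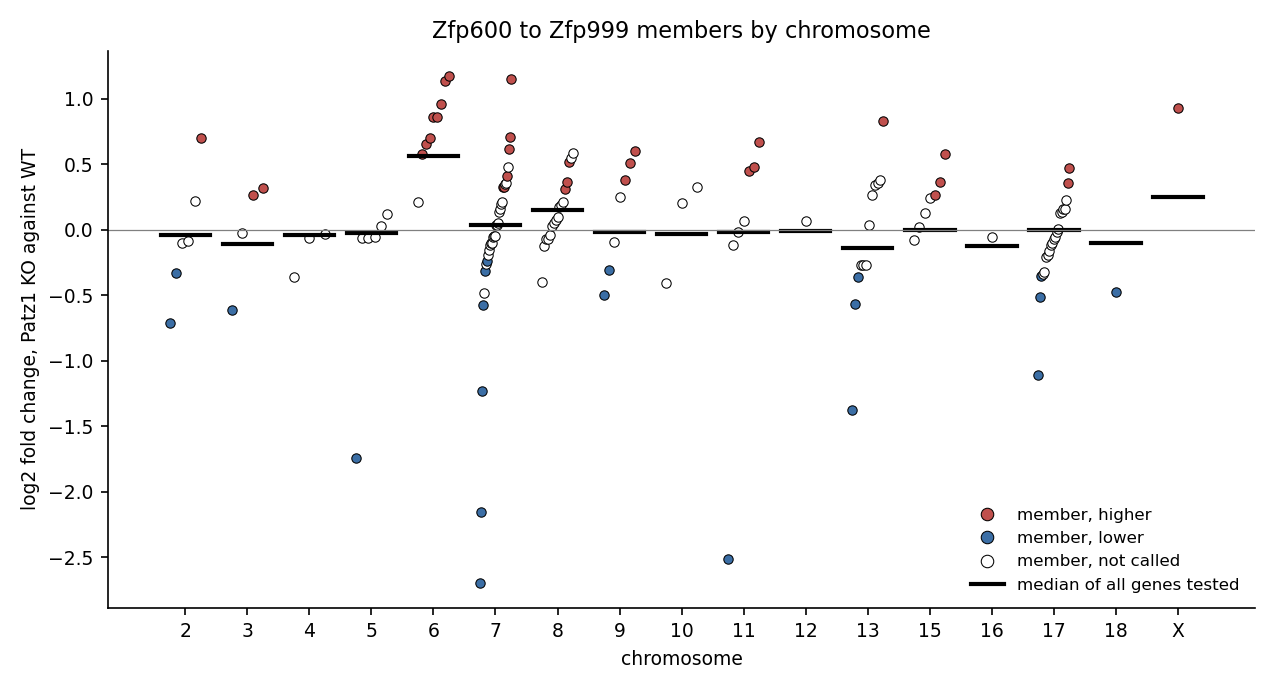
Log2 fold change of Patz1 KO against WT (vertical axis) of each zinc finger gene tested, by chromosome (horizontal axis), filled where called higher or lower at adjusted p under 0.05, with a bar at the median of all genes tested on that chromosome. The 9 genes of chromosome 6 lie between 0.21 and 1.17 around a bar at 0.56, while the 32 of chromosome 7 spread from -2.69 to 1.15.

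The zinc finger genes lie in runs, and 74 of the 146 fall in 13 runs of 3 or more whose neighbouring starts are at most 500 kb apart. Inside the runs 16 rose and 10 fell of 73 tested (35.6%), and outside them 17 rose and 10 fell of 65 (41.5%), both shares below the 47.4% of all genes tested. Of these runs, only that on chromosome 6 had every tested gene called. The largest run, chr17:21383748-22867134, holds 11 KRAB genes, of which *Zfp948* (0.47) rose, *Zfp820* (-1.10) and *Zfp945* (-0.35) fell and 8 were not called. *Zfp945* was -0.32 (adjusted p = 0.0889) without WT replicate 2.

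In 3 runs no gene was called by edgeR, namely that of *Zfp781*, *Zfp873* and *Zfp938* on chromosome 10, that of *Zfp628*, *Zfp865* and *Zfp784* on chromosome 7 and that of *Zfp709*, *Zfp882*, *Zfp617* and *Zfp961* on chromosome 8. In 3 further runs, as in the largest run and in that of *Zfp629* on chromosome 7 (below), calls went both ways. On chromosome 7 *Zfp715* (0.41) rose while *Zfp936* and *Zfp819* fell, on chromosome 17 *Zfp952* (0.36) rose while *Zfp871* fell, and on chromosome 9 *Zfp810* (0.38) rose while *Zfp809* fell. The call of *Zfp715* was lost without WT replicate 1, at 0.30, that of *Zfp810* without WT replicate 2, at 0.33, and that of *Zfp952* without either WT library, at 0.41 and 0.31.

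In the run at chr7:127244274-127885996, *Zfp629* (-2.69) and *Zfp646* (-0.24, adjusted p = 0.047) fell, *Zfp688* rose (0.62), and *Zfp771*, *Zfp768*, *Zfp747*, *Zfp764*, *Zfp689* and *Zfp668* were not called, with log2 fold changes from -0.48 to 0.35. Of 18 other genes tested between them 2 were higher and 6 lower, with a median of -0.088. The calls of *Zfp646* and *Zfp688* did not hold in every fit that left out a library. That of *Zfp646* was lost without WT replicate 1 (-0.24) or WT replicate 2 (-0.23), where its value hardly moved but a single WT library remained. It was also lost without *Patz1* KO replicate 2 (-0.15). The call of *Zfp688* was lost without WT replicate 2 (0.52) or *Patz1* KO replicate 2 (0.35). In the run at chr13:62129886-62571199, *Zfp808* and *Zfp934* fell, *Zfp935* had -0.27 (adjusted p = 0.11), and the unnumbered gene between them, *Gm3604*, had -1.15 (adjusted p = 0.000213), although all of the words of *Zfp935* occur in other genes. In the run of 8 at chr13:67038596-67687071, *Zfp874a* was the 1 gene called.

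On chromosome 8, whose genes had a median log2 fold change of 0.15, 3 of 17 zinc finger genes rose and 0 fell, beside 34.5% higher and 15.8% lower of all genes tested on that chromosome. The rises were *Zfp868* (0.31), *Zfp958* (0.37) and *Zfp963* (0.52), and none of them passed the test relative to the chromosome median, at 0.16, 0.22 and 0.37. Each was also lost without WT replicate 1, at 0.22, 0.25 and 0.38, and *Zfp958* also without *Patz1* KO replicate 2, at 0.22. The calls whose values have not been given came to 10 genes that rose, with log2 fold changes from 0.27 to 0.61, and 2 that fell, at -0.33 and -0.31, and 9 of these calls were lost in at least 1 fit without a library.

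The levels per exon length were low for most of the genes. Over the genes tested the median was 4.52 RPKM (counts per kilobase of exon and per 1000000 counts) in WT and 4.97 in *Patz1* KO, with 29 of the 146 above 10 RPKM and 10 of those tested under 1 on the mean of all libraries. The highest level was that of *Zfp706*, a small protein with a single zinc finger that holds back *Klf4* as mESCs leave self-renewal, at 36.8 ± 0.68 RPKM in WT and 34.9 ± 0.535 RPKM in *Patz1* KO (SD, n = 2 each). Next came *Zfp869* at 32.3 ± 1.37 RPKM in WT and 33.6 ± 0.265 RPKM in *Patz1* KO and *Zfp617* at 25.2 ± 2.77 RPKM in WT and 28.5 ± 0.317 RPKM in *Patz1* KO, followed by *Zfp664* at 24.2 ± 1.9 RPKM in WT and 23.4 ± 1.11 RPKM in *Patz1* KO and *Zfp811* at 22.1 ± 2.07 RPKM in WT and 24.4 ± 1.22 RPKM in *Patz1* KO. *Zfp617*, *Zfp664* and *Zfp811* overlap within their spread in WT. None of the 5 was called, with log2 fold changes from -0.078 to 0.18. *Zfp617* overlaps its neighbour *Zfp882* and shares 41.5% of its words with other genes.

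Several genes with a known role were measured and not called. *Zfp644*, a partner of the H3K9 methyltransferases G9a and GLP, had 2518 and 2838 counts in the WT libraries against 4059 and 2794 in those of *Patz1* KO, with a log2FC of -0.058 (SE 0.0857, adjusted p = 0.606). *Zfp687*, a partner of ZMYND8, had -0.022 (SE 0.0972), and *Zfp827*, which recruits NuRD to telomeres, 0.033 (SE 0.0932). *Zfp652*, a partner of the ETO family repressor CBFA2T3, had 0.065 (SE 0.121), *Zfp703*, a NET family repressor, -0.036 (SE 0.17), and *Zfp830* -0.016 (SE 0.11). *Zfp804a*, whose human counterpart lies at a schizophrenia risk locus, had 83 and 77 counts in the WT libraries against 121 and 81 in those of *Patz1* KO, with a log2FC of -0.081 (SE 0.211, adjusted p = 0.774). For each of these genes the log2FC was smaller in size than its own SE, which does not show that the groups are equal.

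Of the genes known to act on retroelements, *Zfp809* was called, as given above, and *Zfp932* was not. *Zfp932*, which represses endogenous retroviruses, had -0.063 (SE 0.0998, adjusted p = 0.63), and *Zfp961* had -0.12 (SE 0.118, adjusted p = 0.426). *Zfp708* had 92 and 116 counts in the WT libraries against 181 and 165 in those of *Patz1* KO, with a log2FC of 0.34 (SE 0.195, adjusted p = 0.156), but 94.9% of its words occur in other genes. *Zfp600*, with at most 8 counts in any library, was not tested. *Zfp638*, *Zfp979*, *Zfp980*, *Zfp982* and *Zfp989* are not among the symbols of the count files used here. In all, 27 of the 146 genes share at least 10% of their words with another gene, and without them 31 rose and 14 fell of 112 tested, with a median of 0.053. How reads that match more than 1 gene were counted is not given in the sources used here.

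At the lower edge of the filter, the 3 genes just inside it by their second highest count were *Zfp936* (15), *Zfp819* (17) and *Zfp750* (20), and the 3 just outside were *Zfp600* (7), *Zfp872* (3) and *Zfp804b* (2). A difference in the genes outside was not detectable at this depth.

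The partners through which KRAB proteins act were taken as a list of 32 genes for TRIM28, SETDB1 and its partners, HP1, NuRD, the HUSH complex, ATRX and DAXX, DNA methylation and SUMO. Of 31 tested, 4 rose and 15 fell, with a median log2 fold change of -0.25, beside 24.0% and 23.4% of all genes. The 2 central genes were not called. *Trim28* had 8780 and 9020 counts in the WT libraries against 12864 and 7437 in those of *Patz1* KO, with a log2FC of -0.25 (SE 0.107, adjusted p = 0.0657), and *Setdb1* had 1747 and 1934 counts in the WT libraries against 2646 and 1687 in those of *Patz1* KO, with a log2FC of -0.19 (SE 0.0874, adjusted p = 0.0863). For both genes each WT value in CPM was above each *Patz1* KO value, but the difference did not pass the test.

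Among the HP1 genes, *Cbx1* and *Cbx5* fell, with log2 fold changes of -0.44 (SE 0.0895) and -0.52 (SE 0.106), while *Cbx3*, on chromosome 6, rose by 0.31 (adjusted p = 0.0258) and stood at -0.25 relative to its chromosome. The call of *Cbx3* was lost without WT replicate 1 (0.29), WT replicate 2 (0.35) or *Patz1* KO replicate 2 (0.19). Of the genes that keep up DNA methylation after replication, *Hells*, *Uhrf1* and *Dnmt1* fell. *Hells*, a chromatin remodeller, had 1245 and 1319 counts in the WT libraries against 1010 and 732 in those of *Patz1* KO, with a log2FC of -0.97 (SE 0.0929, adjusted p = 1.73e-07), *Uhrf1* one of -0.72 (SE 0.0871) and *Dnmt1* one of -0.59 (SE 0.0881). The 6 markers of dividing cells fell in the same libraries, with a median log2 fold change of -0.83, and their part in the fall of these genes was not tested.

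Of the NuRD genes, *Mta1* (-0.55), *Hdac1* (-0.39), *Mta2* (-0.27) and *Rbbp4* (-0.26) fell, *Chd3* (0.66) and *Rbbp7* (0.26) rose, and *Chd4*, *Hdac2*, *Mbd3*, *Gatad2a* and *Gatad2b* were not called. *Rbbp7* lies on the X chromosome and stood at 0.0072 relative to its chromosome, and *Chd4* lies on chromosome 6 and went from 0.12 to -0.44 by that measure. Of the SUMO genes, *Sumo2* (-0.40) and *Sumo3* (-0.49) fell. Of the HUSH and associated genes, *Morc2a* (-0.50) and *Pphln1* (-0.37) fell, and *Mphosph8* and *Fam208a*, listed under its older symbol, were not called. *Atrx*, on the X chromosome from 100 Mb onwards, rose by 0.42 and stood at 0.17 relative to its whole chromosome, and *Daxx* fell, at -0.25. On the X the genes from 100 Mb onwards had a median of 0.69 and those before it -0.064. The values of *Atrx* and *Rbbp7* relative to the whole X are therefore not relative to their segment. The calls of *Mta2*, *Rbbp4* and *Daxx* were lost without either WT library, with log2 fold changes from -0.27 to -0.24, as was that of *Rbbp7*, at 0.20 and 0.32. *Rbbp4* and *Daxx* were also lost without *Patz1* KO replicate 1, at -0.17 and -0.21, *Atrx* without WT replicate 1, at 0.38, and *Pphln1* and *Sumo2* without WT replicate 2, at -0.34 and -0.36. Leaving out WT replicate 1 took the number called in the list from 19 to 12 and leaving out WT replicate 2 to 11.

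PATZ1 binds G-rich DNA, so the promoters were searched for the motif GGGAGGG on either strand, in the 300 bases from 250 before to 50 after each start that RefSeq gives on GRCm38.p6. A promoter was held for 124 of the 146 genes, and 33 of these (26.6%) had the motif in at least 1 window, beside 33% of all tested genes with a promoter and 23.8% of all genes in the table. Counted by window, 23.7% of those of the zinc finger genes had it, beside 29.4% of those of all genes tested and 22% of all windows in the table. The GC content of these sets was 56.6%, 60.7% and 53.8%, in that order. Among genes called higher 7 of 30 had it, among those called lower 2 of 13, and among those not called 22 of 74. The 2 falling genes with the motif were *Zfp629*, which has it in 1 of its 3 start windows, and *Zfp820*, which has it 3 times in 1 window. On chromosome 6 *Zfp777* has it. The 30 bases around each match are given 5′ to 3′ on the strand of the gene, with the motif in capitals, to show where it lies in the genes that fell most and in the chromosome 6 run.
Zfp629 at chr7:127614898-127614927: gaccgccgtggGGGAGGGgaggcgcgcgcg
Zfp820 at chr17:21845962-21845991: taagactgagaGGGAGGGaactgaatcccc
Zfp820 at chr17:21845891-21845920: ggataaaagcaGGGAGGGgtctaccaaaat
Zfp820 at chr17:21845835-21845864: cagcatttagtGGGAGGGtctaggagagca
Zfp777 at chr6:48047939-48047968: cgacgttagcgGGGAGGGggcgccctggcg
These matches lie 49 bases before the RefSeq start of the window in *Zfp629*, 221, 150 and 94 in *Zfp820* and 163 in *Zfp777*, counted to the first base of the motif. In *Zfp629* and *Zfp777* that start and the match lie inside the span that GENCODE gives the gene, not upstream of it. A match of letters is not a binding site, and binding was not analysed here.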

How the data were processed

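Counts per gene were deposited for each library. Per the labels and the submitters' processing notes, the authors aligned stranded TruSeq reads to mm10 (GRCm38) with TopHat2 2.1.1 and Bowtie2 2.3.1 and counted them with featureCounts 1.6.2, and DESeq2 is named among their tools. The annotation, the strand setting and the handling of reads with several matches are not given in the sources used here.

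The deposited counts were read for all 23420 symbols. Genes with at least 10 counts in at least 2 libraries (14394) were scaled with TMM and tested with edgeR 4.0.16 in R 4.3.3 (glmQLFit and glmQLFTest, WT against *Patz1* KO, 4 libraries, no covariate), with Benjamini-Hochberg adjustment over all genes tested and a threshold of 0.05. CPM used the TMM library sizes, RPKM the merged exon length. The common biological coefficient of variation was 7.71%. Depth was 14769104 to 23881522 counts. DESeq2 1.42.0 was an alternative. The fit was tested on simulated data.

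Positions, exon lengths and overlaps came from GENCODE M21, to which all 146 zinc finger symbols were matched, 3 of them by an older symbol. Fingers and KRAB boxes were searched in reading frames translated from that annotation, in place of the RefSeq proteins planned, a KRAB box being at least 7 of 15 consensus residues. A word is a 50-base stretch of transcript. Promoter windows came from RefSeq and were not held for 22 of the genes.

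Genes were named by these rules: the 12 largest rises and the 12 largest falls among genes called, with a mean of at least 50 counts and groups that do not overlap, genes of runs, genes with a known role, the 5 highest levels per length, the edge of the filter, and the partner list, of which 1 gene is not reported here. The genes and lists were chosen with earlier results of these data known. The alternatives were 15 settings and 3 more chosen after seeing the data (relative to the chromosome median, without chromosome 6, without genes that share words). Replicates shared a number, but only 2 pairs exist, and no pairing was assumed. Coordinates are of GRCm38.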

Additional observations from a re-analysis of the deposited data

How the results depend on the processing

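Under the other settings no zinc finger gene called in the original fit was called in the opposite direction. A set of 88 genes, called or named, gave 1484 values under other settings. Of these, 1291 kept their side of the threshold, 189 lost it, 3 gained it and 1 changed sign in a gene called in the original fit. That value was *Cbx3* relative to the chromosome median, at -0.25. Counted separately, 22 values changed sign without a call. The set left out many genes not called, where a gain is possible. Over all 138 zinc finger genes tested, the fit with GC content and exon length removed gained 17 calls and lost 4, and 46 were higher. In the 4 fits that left out 1 library, the counts ran as follows: zinc finger genes called higher 19 to 41, called lower 11 to 24, called in all 30 to 62, called with a KRAB box 17 to 38, called without one 13 to 25, called in runs 16 to 34, called in the run on chromosome 6 from 6 to 7, other numbered Zfp genes called 33 to 75, partner genes called 11 to 21, and the median log2 fold change 0.028 to 0.097. The lowest counts came with WT replicate 1 or 2 left out, where a single WT library remained. Against a minimum change of 1 on the log2 scale (edgeR's glmTreat), 0 zinc finger genes were called higher, 3 lower and 3 in all, 1 with a KRAB box, 2 without one, 1 in runs, 0 in the run on chromosome 6, 0 of the other numbered Zfp genes and 0 of the partner genes, as the test asks for a larger change. At an unadjusted p under 0.05 the same test gave 2 zinc finger genes higher, 1 in the run on chromosome 6, 2 of the other numbered Zfp genes and 0 of the partner genes. DESeq2's Wald test called 12 lower, and 36 of the 53 calls were kept. The median moved to 0.014 with library size alone, 0.087 with GC content and exon length removed and 0.011 relative to the chromosome median, where 3 genes of the chromosome 6 run were called and 42 of all 53 calls were kept, 11 lost and 5 gained. The cause of these moves was not tested.

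With the replicate number as a block, 37 genes were higher and 22 lower, 59 in all, and all 53 calls were kept. Same-numbered samples did not clearly deviate together from their group means, with a correlation of 0.0407 across genes. With so few libraries in each group, this value cannot decide whether same-numbered samples were handled together.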

Other observations

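Along chromosome 6 the genes were higher in *Patz1* KO over the whole length. In 15 windows of 10 Mb the median log2 fold change of the genes tested lay between 0.16, over 16 genes from 60 to 70 Mb, and 0.79, over 57 genes from 50 to 60 Mb, and in 14 of the 15 windows it was above 0.35. Between the 2 WT libraries the median difference of chromosome 6 genes was 0.0089, and between the 2 *Patz1* KO libraries -0.0050. Of the 754 genes tested on chromosome 8, 260 were higher and 119 lower, with a median of 0.15. Its windows of 10 Mb had medians from 0.0355 to 0.30, apart from -0.077 over 15 genes from 50 to 60 Mb. On chromosome 13, which holds 12 of the zinc finger genes tested, 77 were higher and 174 lower of 561, with a median of -0.13. On the X chromosome the change of level lay near 100 Mb, a position chosen after the values were seen. The 5 Y-linked genes tested had a median of -1.94, with 4 called lower.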
